A study of Rattus norvegicus with 8 samples.

Results

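The genes described here belong to the machinery that copies and divides the genome: the CDK1 kinase with its cyclins and CKS subunits, mitotic kinases, the ubiquitin ligase of mitosis, kinetochore and spindle proteins, cytokinesis factors and replication factors. They were compared between male and female rat kidney cortex. The list held 48 rat genes. Each was looked up through the RefSeq accession of its array probes, and where a gene had several probes the brightest over the 8 arrays was taken. Of the 48 genes, 40 had a named probe, and all 40 passed the filter, which asked that 4 or more of the 8 arrays show a signal well above background. No probe with a matching accession was found for Anln, Bub1b, Cenpe, Mcm3, Mcm5, Mki67, Spc24 and Top2a, which were therefore not analysed here. Across the whole array 11851 different named genes passed the same filter.

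The samples were cortical kidney slices of 4 male and 4 female adult rats of the strain RCCHanTMWIST, an outbred Han Wistar stock. The rats received no treatment, and each rat was hybridised on its own one-colour Agilent array. Values are log2 signals relative to the 75th percentile of all spots of the same array, so a value of 0 equals that percentile, and a log2 fold-change is the male mean minus the female mean. A gene was called different when its Benjamini-Hochberg adjusted p, taken over all 23425 probes tested with limma, was below 0.05.

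A cell that divides passes in order through DNA replication, entry into mitosis, chromosome segregation and cytokinesis. CDK1 bound to cyclin A or B drives the entry into mitosis, the kinetochore and spindle proteins attach and pull the chromosomes, and the anaphase-promoting complex destroys the cyclins to let the cell leave mitosis. Most of these genes are transcribed from late S phase to mitosis and are nearly silent in resting cells. In the adult kidney few tubule cells divide at any time. In whole tissue, more dividing cells and more RNA per dividing cell cannot be told apart.

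The 8 arrays were similar in the share of probes detected. This share of probes well above background ran from 73.8% to 79.1%, and no spot was saturated. Their 75th percentile signals ran from 5025 to 5944 in females and from 5685 to 6547 in males. Outlier spots made up 0.439% to 0.645% of the spots in row 1 of the slide and 0.838% to 1.33% in row 2. The summed linear level of 5 markers of proximal tubule segments S1 and S2 was 119 to 130 times the 75th percentile in females and 111 to 118 times in males. The steroid enzyme genes Cyp11b1 and Cyp11b2 and the carrier gene Star of the adrenal gland did not pass the filter, whereas Cyp21a1, the remaining adrenal marker, was well above background on all 8 arrays, with a mean log2 signal of -2.97 in females and -3.40 in males.

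Many cell cycle genes carry 2 kinds of short element close to their start, a CCAAT box and the cell cycle genes homology region (CHR), and genes of the G1/S transition carry E2F elements. The RefSeq promoters of assembly GRCr8, each covering 250 bases before and 50 bases after the annotated start, held an entry for 40 of the 48 listed genes and for 32 of the 40 measured ones. On either strand, CCAAT was present in 23 of these 32 promoters (71.9%) and in 37.5% of all 33469 promoters of the same length. The CHR, searched as TTTGAA, was present in 19 (59.4%) and in 18.3% of all promoters. An E2F element, searched as TTTCCCGC, TTTGGCGC, TTTCGCGC or TTTGCCGC, was present in 5 (15.6%) and in 2.14% of all promoters. Matches of different motifs may overlap and were counted separately. The elements were divided between the roles. Among the 26 measured members outside replication, 18 promoters (69.2%) held the CHR and 1 (3.85%) held the E2F element, whereas among the 6 replication members 1 held the CHR and 4 held the E2F element. A match is a run of letters and is not evidence of a bound factor.

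The 250 bases before the start are shown, 5′ to 3′ on the strand of the gene, for the called members with a RefSeq entry and for Cdk1, with CCAAT, CHR and E2F matches in capitals.
Melk, chr5:63335901-63336150, plus strand: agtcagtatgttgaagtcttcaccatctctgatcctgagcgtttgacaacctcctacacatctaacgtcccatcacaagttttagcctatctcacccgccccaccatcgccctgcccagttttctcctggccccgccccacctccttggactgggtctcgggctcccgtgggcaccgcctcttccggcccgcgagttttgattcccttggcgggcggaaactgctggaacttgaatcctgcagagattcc
Kif11, chr1:244536617-244536866, plus strand: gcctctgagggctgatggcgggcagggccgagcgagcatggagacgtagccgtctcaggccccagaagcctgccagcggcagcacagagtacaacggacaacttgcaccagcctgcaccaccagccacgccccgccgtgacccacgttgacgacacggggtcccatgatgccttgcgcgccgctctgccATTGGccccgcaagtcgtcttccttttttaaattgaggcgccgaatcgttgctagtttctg
Spc25, chr3:74396719-74396968, minus strand: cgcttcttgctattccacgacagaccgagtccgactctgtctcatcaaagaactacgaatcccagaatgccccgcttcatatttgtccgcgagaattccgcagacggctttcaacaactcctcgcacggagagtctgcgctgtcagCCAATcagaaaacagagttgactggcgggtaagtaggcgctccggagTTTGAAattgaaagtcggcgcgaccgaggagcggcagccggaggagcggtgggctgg
Cdk1, chr20:19265043-19265292, plus strand: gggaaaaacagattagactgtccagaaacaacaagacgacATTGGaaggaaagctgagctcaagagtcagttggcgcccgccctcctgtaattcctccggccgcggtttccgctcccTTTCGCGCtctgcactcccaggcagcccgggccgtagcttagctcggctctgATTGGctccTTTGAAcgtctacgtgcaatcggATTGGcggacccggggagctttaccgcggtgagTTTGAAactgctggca
In these windows Melk held no match to any of the 3 motifs, Kif11 held 1 CCAAT box, Spc25 held 1 CCAAT box and 1 CHR, and Cdk1 held 3 CCAAT boxes, 2 CHR matches and 1 E2F element. Over the full promoter, Cks2 and Cdca8 each held 4 CCAAT boxes and a CHR, whereas Cdca3, Kif20a and Ccnb1 held CCAAT boxes and no CHR. A window without a match says only that these letters are not in it. The table of promoters held no entry for Tpx2.

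Melk, Tpx2, Kif11 and Spc25 were higher in males, and no member was called higher in females. The 4 calls among 40 members stood beside a background of 3.39% of all tested probes called higher in males, and the 0 calls in the other direction beside 4.67% called higher in females. At an unadjusted limma p below 0.05, 12 members were higher in males, beside 9.73% of all probes, and 1 member, Tyms, was higher in females, beside 15.8% of all probes. Melk and Tpx2 also differed at least 2-fold, beside 1.89% of all probes in either direction. In 6 members every male lay above every female (Melk, Tpx2, Cks2, Spc25, Kif11 and Cdca8), beside 7.46% of all probes. The median log2 fold-change was 0.56 over the 40 members and -0.04 over all probes, and 36 members (90%) were positive against 41.6% of all probes. Among the 4 arrays in row 1 of the slide the median over the members was 0.02, with 22 of 40 positive, and among the 4 arrays in row 2 it was 0.98, with 36 of 40 positive. A log2 fold-change of at least 0.5 was found in 22 members (55%) and in 3.71% of all probes. Because members outside replication varied together among rats of the same sex (described below), counts of members are not counts of separate observations. Over all probes 42.1% of the calls were higher in males, and with quantile normalization 52.5% were. The background thus depended on the normalization. With quantile normalization 49.2% of all probes and 36 of the 40 members were positive, and 1039 probes were called higher in males and 939 higher in females. Melk, Tpx2, Cks2 and Spc25 are also in the list of sex-different genes that the study drew from these same arrays, so that list is not independent evidence of their direction.

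Melk encodes a protein kinase of the AMPK family that is transcribed mainly in dividing and progenitor cells. Its log2 signal was -6.06, -6.04, -6 and -5.73 in females 1 to 4 and -2.36, -2.64, -2.28 and -2.38 in males 1 to 4. The lowest male lay 3.09 above the highest female and the values within each sex lay close together. The log2 fold-change was 3.54 ± 0.108 (SE, n = 4 per sex), an 11.7-fold difference (adjusted p = 4.12e-06 with limma). Its probe carries an accession absent from the RefSeq table used here and was named through the accession and gene identifier pair in the study's supplementary list. Without Melk the members numbered 39, with 3 called higher in males and an unchanged median of 0.56.

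Tpx2 encodes a spindle assembly factor that activates the Aurora A kinase and nucleates microtubules around chromosomes. Females 1 to 4 had log2 signals of -6.38, -6.22, -6.21 and -5.88, and males 1 to 4 had -5.08, -5.20, -4.65 and -4.98. No male overlapped with a female, with a gap of 0.68. This gave a log2 fold-change of 1.19 ± 0.145 (SE, n = 4 per sex), 2.29-fold (adjusted p = 0.00289 with limma).

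Kif11 encodes the kinesin motor that slides spindle microtubules apart and separates the spindle poles. Log2 signals of 0.23, -0.28, -0.04 and -0.01 were measured in females 1 to 4, and of 0.76, 0.91, 0.66 and 0.92 in males 1 to 4. All males were above the array's 75th percentile and above all females, with a gap of 0.43. Kif11 thus differed by a log2 fold-change of 0.84 ± 0.116 (SE, n = 4 per sex), 1.79-fold (adjusted p = 0.00515 with limma).

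Spc25 encodes a subunit of the NDC80 complex, the part of the kinetochore that grips microtubules. Its log2 signal was -4.66, -4.41, -4.37 and -4.20 in females 1 to 4 and -3.96, -3.23, -2.93 and -3.67 in males 1 to 4. The sexes did not overlap, with a gap of 0.24, but the males spread over about 1 log2 unit, with males 3 and 2 highest. The log2 fold-change was 0.96 ± 0.218 (SE, n = 4 per sex), 1.95-fold (adjusted p = 0.0347 with limma). This call depended on single arrays: the adjusted p was 0.0821 without female 1, 0.0834 without female 2, 0.0766 without female 3, 0.0905 without male 2, 0.058 without male 3 and 0.0556 without male 4. It was also lost when dim probes were kept (adjusted p = 0.0616).

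Cks2 encodes a small subunit that docks CDK1 to phosphorylated substrates. Its log2 signal was -2.11, -2.44, -2.75 and -1.61 in females 1 to 4 and -0.67, -1.07, -1.58 and -1.41 in males 1 to 4. Every male lay above every female by a gap of only 0.03, and here male 1 was the highest rat. The log2 fold-change was 1.05 ± 0.274 (SE, n = 4 per sex), 2.06-fold, and missed the threshold (adjusted p = 0.055 with limma). It passed the threshold under 6 of the other processing settings tried and without female 4 (adjusted p = 0.0268). Its paralog Cks1b had a log2 signal of -2.17, -2.16, -2.08 and -2.07 in females 1 to 4 and -2.14, -2.08, -1.84 and -2.08 in males 1 to 4. The groups overlapped, and the log2 fold-change of Cks1b was 0.08 (95% interval -0.10 to 0.27, adjusted p = 0.578 with limma). A further probe of Cks1b gave 0.14.

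**Figure D1:**
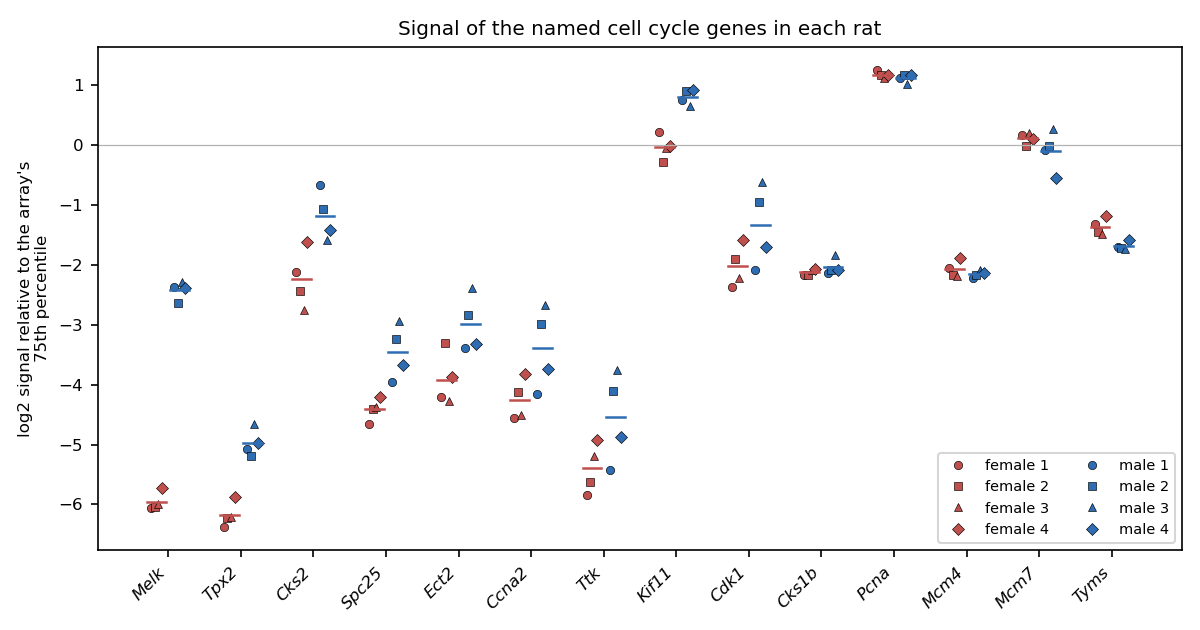
The log2 signal relative to the array's 75th percentile (vertical axis) is plotted for 14 cell cycle genes (horizontal axis), with 1 symbol per rat, females in red and males in blue, and a bar at each mean. Melk shows a gap of 3.09 between the sexes, Tpx2, Kif11 and Spc25 show smaller gaps, and in Cdk1, Ccna2 and Ttk males 2 and 3 stand above the other 6 rats.

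The other members of the CDK1 complex had positive differences that stayed within the spread between rats. Cdk1, the kinase itself, had a log2 signal of -2.36, -1.90, -2.22 and -1.59 in females 1 to 4 and -2.09, -0.94, -0.61 and -1.70 in males 1 to 4. Males 2 and 3 were above all females, and males 1 and 4 lay among them. Its log2 fold-change was 0.68 ± 0.329 (SE, n = 4 per sex, adjusted p = 0.235 with limma). Ccna2, which encodes cyclin A2, had a log2 signal of -4.56, -4.13, -4.50 and -3.82 in females 1 to 4 and -4.15, -2.98, -2.67 and -3.74 in males 1 to 4. The order of the rats was like that of Cdk1, and the log2 fold-change was 0.86 ± 0.328 (SE, n = 4 per sex, adjusted p = 0.146 with limma), with 0.77 at a further probe. The cyclin B genes Ccnb1 and Ccnb2 gave 0.72 and 0.67 (adjusted p = 0.237 and 0.362 with limma), and all 6 members of the complex were positive, with a median of 0.70 and 0 called.

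Of the mitotic kinases and checkpoint genes, 8 were listed and 7 measured, with a median of 0.57 and Melk as the only call. Ttk, the kinase that starts the spindle checkpoint, had a log2 signal of -5.85, -5.62, -5.19 and -4.93 in females 1 to 4 and -5.42, -4.11, -3.75 and -4.88 in males 1 to 4. Males 2 and 3 stood above the other 6 rats, and male 1 lay between females 2 and 3. The log2 fold-change was 0.86 ± 0.369 (SE, n = 4 per sex, adjusted p = 0.191 with limma). Plk1, the polo kinase of mitotic entry, gave 0.72, Pbk gave 0.57 and the checkpoint kinase Bub1 gave 0.44, none of them called. Aurka, the centrosomal Aurora kinase that Tpx2 activates, gave 0.10 (95% interval -0.26 to 0.46), and the checkpoint protein gene Mad2l1 gave 0.06 (-0.17 to 0.29).

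The 3 members of the mitotic ubiquitin ligase group were all positive, with a median of 0.73 and 0 called. Ube2c, the ubiquitin-conjugating enzyme of the anaphase-promoting complex, gave 0.85 ± 0.322 (SE, n = 4 per sex, adjusted p = 0.145 with limma). Without male 1 it was called. Cdca3, a trigger of mitotic entry, gave 0.73, and Cdc20, the activator of the complex in mid-mitosis, gave 0.23.

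At the kinetochore, 4 of 6 listed genes were measured, and all were positive with a median of 0.61. Besides Spc25, the other NDC80 complex subunits Ndc80 and Nuf2 gave 0.65 and 0.47, and the outer kinetochore protein gene Cenpf gave 0.57, none of them called. Cenpf was well above background on 2 female and 4 male arrays, so its female level is close to the background. The chromosomal passenger complex, which corrects faulty attachments, was represented by 3 genes. Aurkb, its kinase, gave 0.67 and was well above background on 3 female and 4 male arrays. Birc5 (survivin) gave 0.06 ± 0.226, and Cdca8 (borealin) gave 0.30 ± 0.0946 (SE, n = 4 per sex, adjusted p = 0.09 with limma). In Cdca8 every male lay above every female, by a gap of 0.01.

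The 4 spindle genes were all positive, with a median of 0.69 and 2 calls, Tpx2 and Kif11. The microtubule bundler gene Nusap1 gave 0.53 and the spindle stabiliser gene Dlgap5 gave 0.38, neither of them called. Of the cytokinesis genes 5 of 6 were measured, with a median of 0.56 and 0 calls. The largest difference was that of Ect2, which encodes the exchange factor that activates RhoA at the cleavage furrow. Ect2 had a log2 signal of -4.20, -3.31, -4.28 and -3.88 in females 1 to 4 and -3.39, -2.84, -2.39 and -3.32 in males 1 to 4. Only female 2 reached into the male range, above males 1 and 4. Ect2 differed by a log2 fold-change of 0.93 ± 0.278 (SE, n = 4 per sex, adjusted p = 0.0799 with limma). The midzone genes Prc1, Kif20a, Racgap1 and Kif23 gave 0.67, 0.56, 0.39 and 0.18.

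The replication members did not share this shift. Of 10 listed genes 8 were measured, 4 were positive and 4 negative, the median was 0 and none was called. Tyms, which encodes thymidylate synthase, was the member with the most negative difference. Its log2 signal was -1.32, -1.45, -1.49 and -1.18 in females 1 to 4 and -1.70, -1.72, -1.73 and -1.58 in males 1 to 4. Every female lay above every male, by a gap of 0.09, and the log2 fold-change was -0.32 ± 0.0857 (SE, n = 4 per sex, adjusted p = 0.0582 with limma). With normexp background correction (adjusted p = 0.045) and with an intensity trend (adjusted p = 0.0407) Tyms was called higher in females.

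Pcna, the sliding clamp of DNA polymerases, had a log2 signal of 1.26, 1.17, 1.12 and 1.17 in females 1 to 4 and 1.12, 1.18, 1.03 and 1.17 in males 1 to 4. The sexes overlapped, and the log2 fold-change was -0.05 (95% interval -0.21 to 0.10). The MCM genes encode the subunits of the replicative helicase. Mcm7 had a log2 signal of 0.17, -0.01, 0.21 and 0.11 in females 1 to 4 and -0.08, -0.01, 0.28 and -0.55 in males 1 to 4, with male 4 lowest and male 3 highest. Its log2 fold-change was -0.21 (-0.58 to 0.16). Mcm4 had a log2 signal of -2.05, -2.16, -2.19 and -1.89 in females 1 to 4 and -2.22, -2.16, -2.08 and -2.13 in males 1 to 4, and these groups overlapped too. The log2 fold-change of Mcm4 was -0.07, and Mcm2 and Mcm6 gave 0.04 and 0.08. Rrm2, the small subunit of ribonucleotide reductase, stood apart from this group with 0.57 ± 0.243 (SE, n = 4 per sex, adjusted p = 0.188 with limma) and 0.77 at a further, dimmer probe. The thymidine kinase gene Tk1 gave 0.29.

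**Figure D2:**
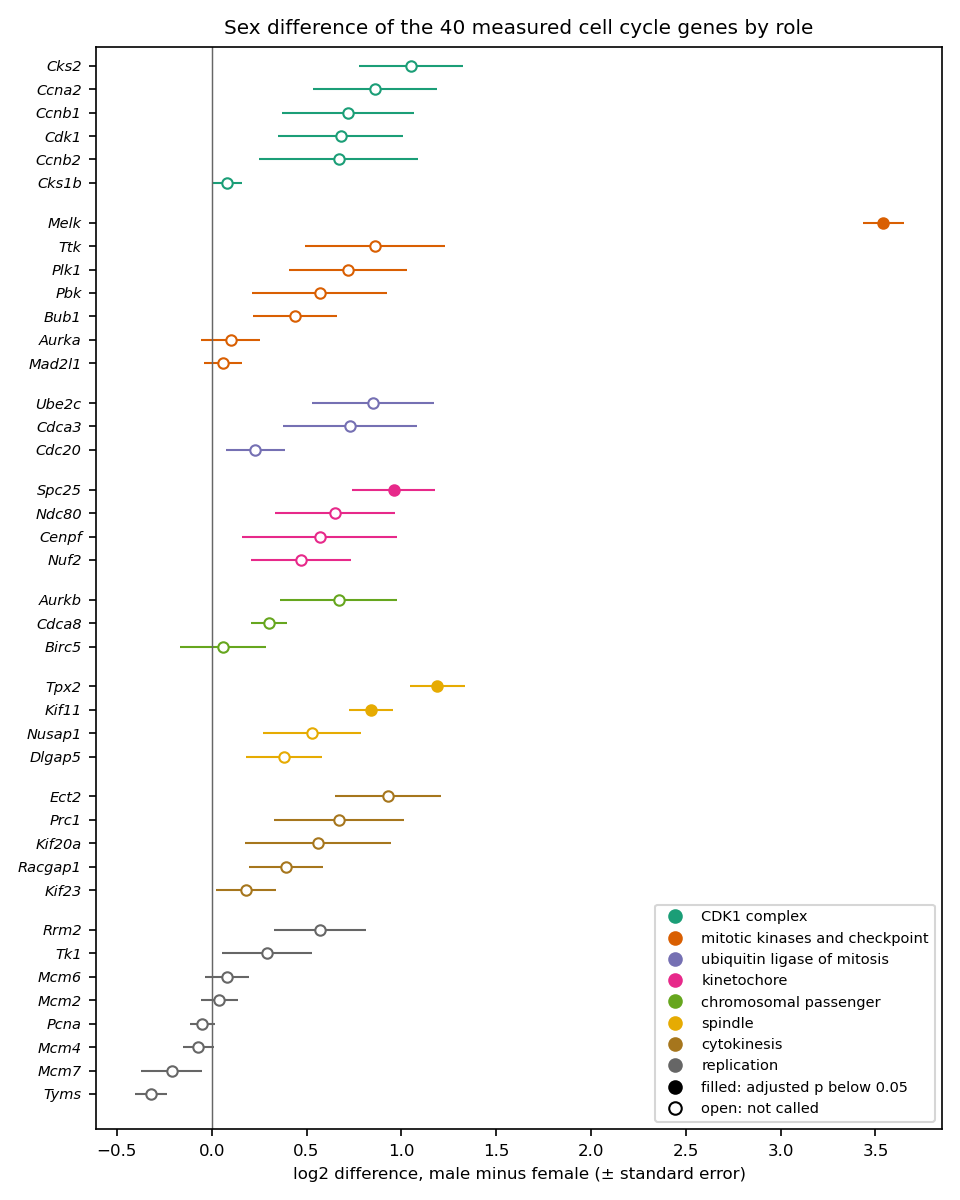
The log2 difference, male minus female, with its standard error (horizontal axis) is shown for each of the 40 measured genes (vertical axis), coloured by role, with filled points for an adjusted p below 0.05. All 32 genes outside replication lie to the right of 0 with a median of 0.66, 4 of them filled, and the 8 replication genes lie on both sides of 0.

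The shift outside replication was carried unevenly by the rats. For each gene the deviation of a rat from the mean over the 8 rats was taken, and then averaged over the 32 genes. The mean deviation was -0.51, -0.27, -0.49 and -0.07 in females 1 to 4 and -0.14, 0.57, 0.85 and 0.07 in males 1 to 4. Males 2 and 3 were above the mean in all 32 genes, and male 3 was the highest rat in 27 of them. Males 1 and 4 were above the mean in 6 and 14 genes. Female 4 was above it in 17 genes, more than either, and female 1 was the lowest rat in 17. Over the 8 replication genes the mean deviation stayed between -0.15 and 0.17 in every rat. Without male 3 the median log2 fold-change of the 40 members was 0.31, and that of the 32 outside replication was 0.38. Melk, Tpx2 and Kif11 were called whichever rat was left out.

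**Figure D3:**
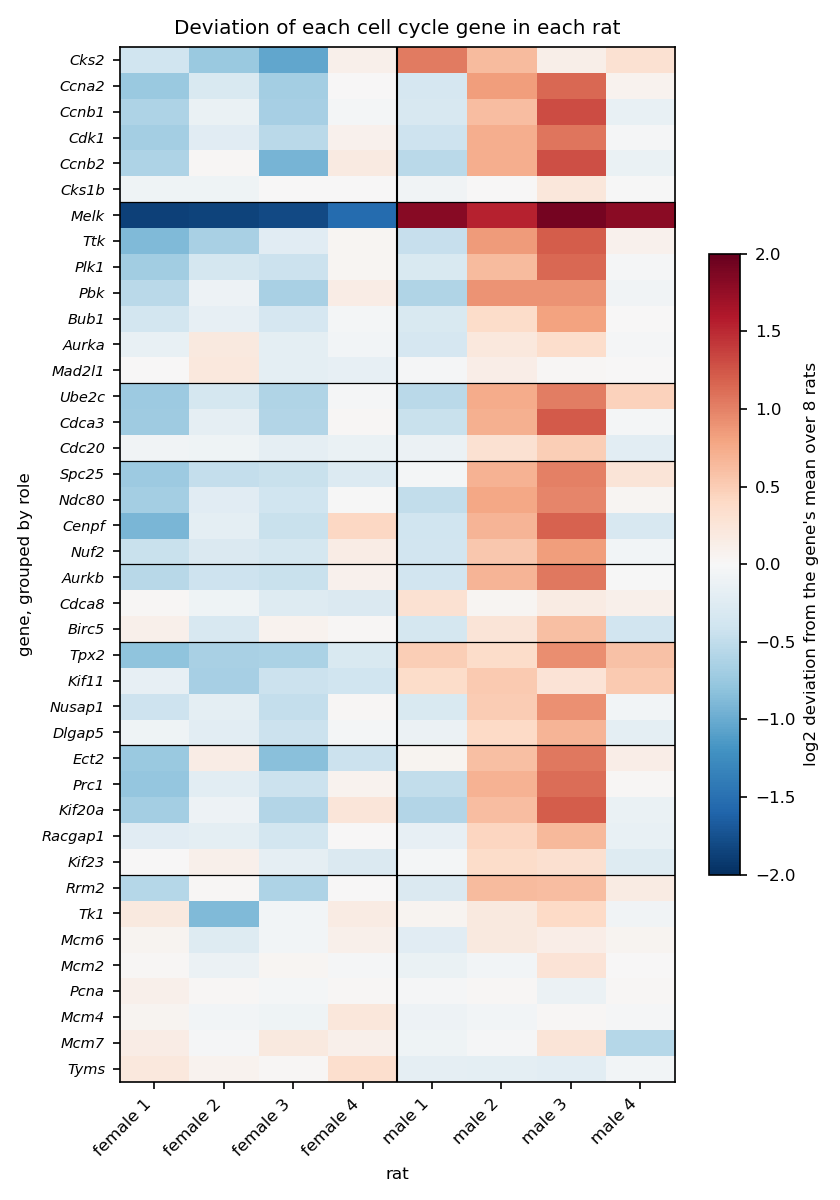
Colour gives the log2 deviation of each of the 40 genes (rows, grouped by role) from its own mean over the 8 rats (columns, females left and males right of the line). Males 2 and 3 are above the mean in every gene outside replication, males 1 and 4 are near it or below it in most, and Melk alone separates all 4 males from all 4 females by a large margin.

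The position of the arrays on the slide moved with these values. All 8 arrays lay on 1 slide and came from 1 scan, with males 1 and 4 and females 3 and 4 in row 1, and males 2 and 3 and females 1 and 2 in row 2. The share of outlier spots was 0.439% to 0.645% in row 1 and 0.838% to 1.33% in row 2. Within row 1, 20 of the 32 members outside replication were positive, with a median of 0.04. Within row 2, 31 of the 32 were positive, with a median of 1.26. Over all 40 members the medians were 0.02 and 0.98. The difference was larger in row 2 for 34 of the 40 members. Ttk gave -0.09 in row 1 and 1.80 in row 2, Cdk1 gave 0.01 and 1.36, and Ccna2 gave 0.21 and 1.52. The called genes differed from this pattern to different degrees. Melk gave 3.49 and 3.59, Kif11 0.87 and 0.81, and Tpx2 1.01 and 1.38, whereas Spc25 gave 0.47 and 1.45. Cks2 gave 1.14 and 0.95, and Tyms gave -0.30 and -0.34.

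With 2 rats per sex in a row, Melk was called in row 1, where 0.0299% of all probes were called in either direction, and Melk and Ttk in row 2, where 1.09% were. A term for the difference of the sex effect between the rows reached an adjusted p below 0.05 with limma in 0 of the 40 members (lowest 0.429, for Ttk) and in 1 of all probes. At an unadjusted p below 0.05 it was reached by 20 members, beside 9.18% of all probes. These 20 are not separate observations, since the members outside replication varied together among the rats (median correlation 0.80, described below). With the row as a block, Melk, Tpx2, Spc25 and Kif11 were called as before. Row and rat cannot be told apart, since each rat was on 1 array. The 2 females of row 2 had mean deviations of -0.51 and -0.27 and those of row 1 had -0.49 and -0.07.

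**Figure D4:**
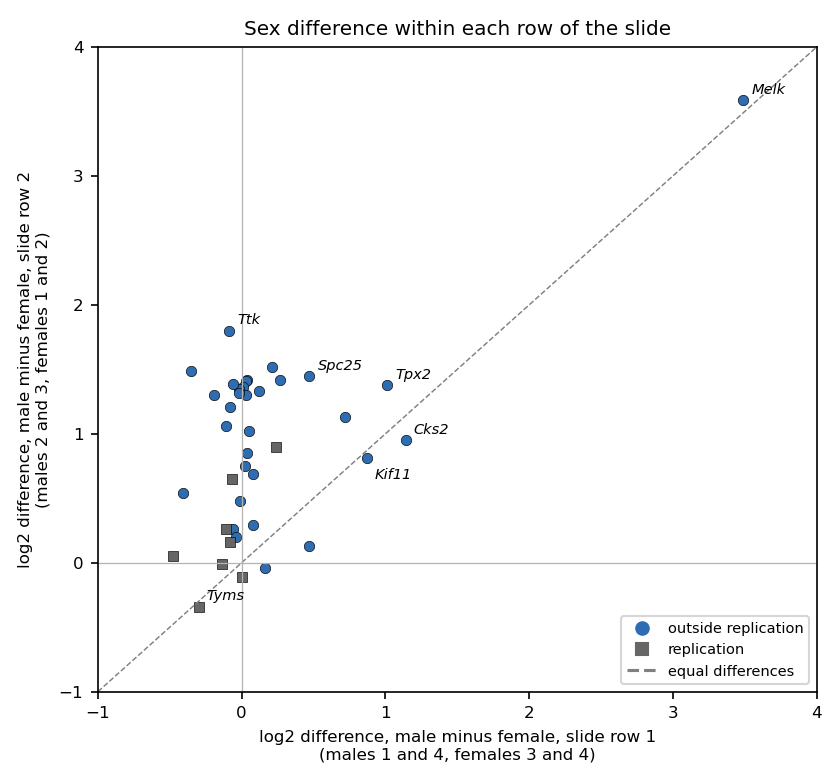
Each point is 1 of the 40 genes, placed by its log2 difference, male minus female, among the 4 arrays of slide row 1 (horizontal axis) and among the 4 arrays of slide row 2 (vertical axis), with replication genes as grey squares and equality as a dashed line. Melk, Kif11, Cks2 and Tyms lie near the dashed line, and most genes outside replication form a column near 0 in row 1 with values up to 1.80 in row 2.

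Members outside replication also varied together among rats of the same sex. After the mean of each sex was taken away, the correlation between 2 of these genes over the 8 rats had a median of 0.80 over 496 pairs, and 68.1% of the pairs were above 0.5. Between pairs of replication genes the median was 0.31, between a replication gene and another member it was 0.43, and between pairs drawn from 1185 named genes spread evenly over the array's list it was 0.01, with 14.9% above 0.5. These are descriptions over 8 arrays of 1 slide. Taken gene by gene, the median correlation with the members outside replication was highest for Ccna2 and Prc1, at 0.95, followed by Aurkb, Cdca3, Cdk1, Kif20a, Nuf2 and Nusap1 at 0.94. Spc25 reached 0.91 and Rrm2 0.85. Among the other called members it was 0.57 for Tpx2, 0.18 for Melk and -0.29 for Kif11. It was also low for Mad2l1 (0.16), Cks2 (-0.17), Cdca8 (-0.38), Pcna (-0.39) and Tyms (-0.04), none of them called. The remaining replication genes lay between, with 0.58 for Mcm2, 0.56 for Mcm6, 0.51 for Mcm7, 0.50 for Mcm4 and 0.24 for Tk1.

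Other genes of the cell cycle showed a smaller shift. Of 135 further genes in 11 roles, 108 had a named probe and 104 passed the filter. Their median log2 fold-change was 0.09, 66 (63.5%) were positive, 6 were called higher in males and 2 higher in females, beside the same backgrounds of 3.39% and 4.67%. By role, all 7 mitotic kinesin genes were positive with a median of 0.47, whereas 2 of 11 genes of origin licensing and firing were positive with a median of -0.12, and 5 of 12 genes of DNA synthesis with a median of -0.06. Some positive genes passed the filter through the males: Kif2c (1.08) and Cdca5 (0.48) were well above background on 2 female and 4 male arrays, and Cenpa (0.65) on 1 female and 4 male arrays, none of them called. Within slide row 1 none of the 104 was called and within row 2, 1 was called higher in males, beside 0.0299% and 1.09% of all probes called in either direction.

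Kifc1, the minus-end kinesin that gathers spindle poles, had the largest difference in this list. Its log2 signal was -2.96, -3.77, -3.41 and -3.24 in females 1 to 4 and -1.87, -2.05, -1.90 and -2.25 in males 1 to 4. All males lay above all females by at least 0.72, and the log2 fold-change was 1.33 ± 0.17 (SE, n = 4 per sex, adjusted p = 0.0036 with limma), with 1.27 and 1.39 in the rows of the slide. Kifc1 is in the study's own list from these arrays as well. Kif20b, a kinesin of cytokinesis, had a log2 signal of -4.35, -4.49, -4.61 and -4.62 in females 1 to 4 and -3.77, -3.73, -3.58 and -3.98 in males 1 to 4. It differed by 0.75 ± 0.103 on the log2 scale (adjusted p = 0.00485 with limma), with a gap of 0.38 between the sexes. Pola1 encodes the catalytic subunit of the polymerase that primes DNA synthesis. In females 1 to 4 Pola1 was at -5.29, -5.26, -5.15 and -5.10 and in males 1 to 4 at -4.76, -4.24, -4.39 and -4.77 on the log2 scale, a difference of 0.66 (adjusted p = 0.0212 with limma). The spindle pole gene Aspm was at -3.74, -3.77, -3.77 and -3.55 in females 1 to 4 and at -3.34, -3.19, -2.83 and -3.37 in males 1 to 4, a difference of 0.53 (adjusted p = 0.044 with limma). Both genes kept the sexes apart, with male 2 or male 3 the highest rat. Stmn1, which encodes a microtubule destabiliser, was at -0.89, -0.95, -0.97 and -0.89 in females 1 to 4 and at -0.34, -0.51, -0.60 and -0.49 in males 1 to 4, a difference of 0.44 (adjusted p = 0.0103 with limma). The calls of Aspm and Pola1 depended on single arrays: Aspm was called without male 3 but not without any 1 of the other 7 rats, and Pola1 was not called without female 1, female 2, female 3 or male 3. The sixth call was Cdkn2c, an inhibitor of CDK4 and CDK6, with 0.40 (adjusted p = 0.0476 with limma), which is named here because it completes the count.

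The genes called higher in females were E2f7, which encodes a repressor of E2F targets, and Cdkn1c, which encodes the CDK inhibitor p57. E2f7 had a log2 signal of -4.20, -4.21, -4.18 and -4.09 in females 1 to 4 and -4.57, -4.70, -4.77 and -4.97 in males 1 to 4. The sexes did not overlap, and the log2 fold-change was -0.58 ± 0.0927 (SE, n = 4 per sex, adjusted p = 0.00887 with limma). Cdkn1c had a log2 signal of 1.47, 1.56, 1.47 and 1.58 in females 1 to 4 and 1.05, 1.16, 1.14 and 1.11 in males 1 to 4. The sexes were again apart, by 0.31, with a log2 fold-change of -0.41 ± 0.0629 (SE, n = 4 per sex, adjusted p = 0.00796 with limma) and -0.54 at a further probe. Cdkn1a, which encodes the CDK inhibitor p21, had a log2 signal of 2.62, 2.66, 2.40 and 2.35 in females 1 to 4 and 2.56, 2.70, 2.21 and 2.32 in males 1 to 4 at its brighter probe. The sexes overlapped, and the difference was -0.06 (adjusted p = 0.798 with limma) and 0.05 at a further probe.

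**Figure D5:**
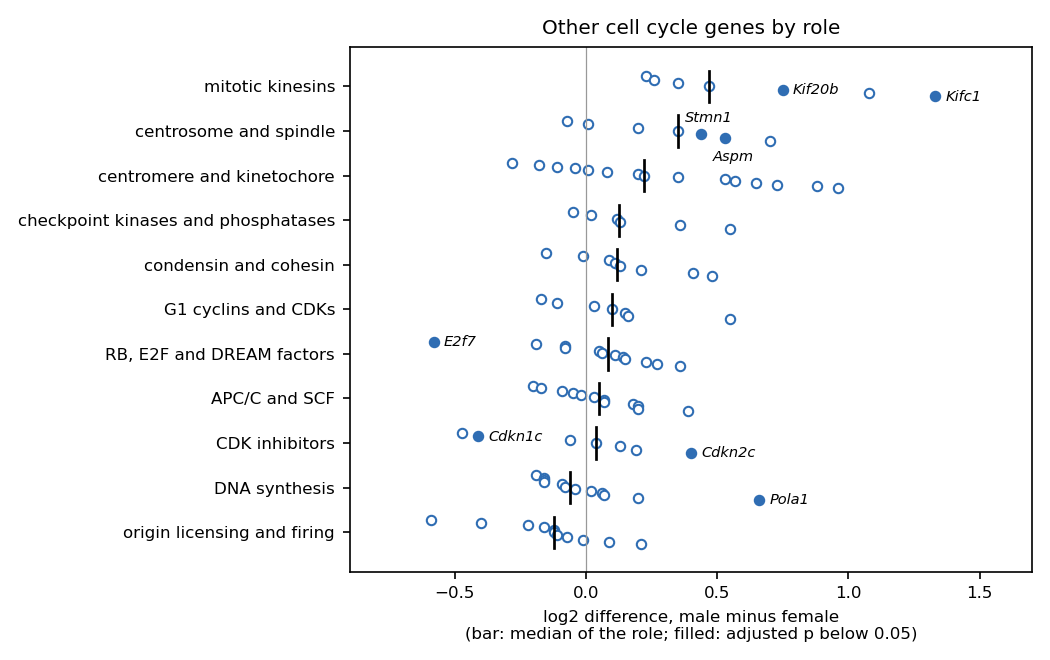
The log2 difference, male minus female (horizontal axis), is shown for 104 other cell cycle genes grouped by role (vertical axis), with 1 point per gene, a bar at the median of each role and filled points for an adjusted p below 0.05. The roles run from mitotic kinesins, with a median of 0.47, down to origin licensing and firing, with a median of -0.12, and Kifc1 at 1.33 is the gene farthest to the right.

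Markers of other cell types were read beside these values. None of the 9 leukocyte markers was called. Their summed linear level was 16.6 to 24.6 times the 75th percentile in females and 20.6 to 25.9 in males, with male 2 the highest at 25.9 and male 3 at 21.7. Cd74 alone made up 80.7% to 85.1% of this sum, and the markers Ptprc and Cd68 each had a log2 fold-change of 0.43 that was not called. The T cell gene Cd3e was well above background on 5 arrays. Of 7 tubular injury markers 5 passed the filter, 0 were called, and the summed level was 6.41 to 8.41 in females and 4.87 to 6.53 in males, with males 3 and 4 lowest. Spp1 made up 36.6% to 66.6% of it and had a log2 fold-change of -0.78 that was not called, while 3 of the 5 markers had a positive difference. Of the 50 markers tested over the 12 lists, 0 were called higher in males and 4 higher in females, beside 3.39% and 4.67% of all probes: Slc22a7 and Cubn of the proximal tubule, Cldn16 of the thick ascending limb and Podxl of the glomerulus. The summed levels of the sexes did not overlap for proximal tubule segments S1 and S2 (given above), for segment S3 (25.9 to 53.4 in females and 19.1 to 25.2 in males), for the thick ascending limb (57.7 to 65.3 and 47.5 to 55.3) and for the glomerulus (12.2 to 13 and 10.5 to 11), all lower in males. Single genes made up much of these sums: Slc34a1 44% to 50.7%, Slc7a13 63.3% to 78.9%, Umod 96.4% to 97.4% and Podxl 71.4% to 79%. Among all single probes tested, every female lay above every male in 2572 of 23425. The part of these cell types in the cell cycle values was not tested.

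With 4 rats per sex the smallest p an exact permutation test can give is 0.0286, which the non-overlapping members reached. The standard errors of the members ran from 0.0666 to 0.42 on the log2 scale, with a median of 0.232 against 0.111 over all probes.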

How the data were processed

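Total RNA from cortical kidney slices of 8 rats, 4 per sex, was labelled with Cy3 and hybridised by the authors on 1 slide of Agilent one-colour rat arrays. Per the file headers, spot intensities were extracted with Feature Extraction 10.7.3.1, which subtracted the background. The deposited files also held the authors' log2 values, which had the same distribution on every array (limma 3.8.2 per the submitters' processing notes); these served as an alternative only.

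Each processed intensity was set to log2, the 75th percentile of the array's spots was subtracted, outlier spots were left out and spots were averaged within a probe. A probe was kept if 4 or more of the 8 arrays gave it a signal well above background (23425 of 30367). Sexes were compared with limma 3.58.1 in R 4.3.3 (lmFit, eBayes, Benjamini-Hochberg adjustment over all kept probes). The fit was tested on simulated data. Probes were named by accession: 17514 through the RefSeq table of GRCr8 and 37, Melk among them, through the study's supplementary table, which lists only genes that differed. The precision is limited by the 8 arrays. Each array held 1 rat, so the replicates were separate animals.

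The members, the list of other cell cycle genes and the marker lists were chosen with earlier results of these data known. Values were given in full for Melk, Cks2, Spc25, Cks1b, Cdk1 and Pcna, for the called members and for the 3 largest differences in each direction among the others, and from the other cell cycle genes for up to 5 called in each direction, Cdkn1a and Kifc1. The reported fit did not treat rats of the same replicate number as pairs. The alternatives were quantile normalization, the authors' log2 values, normexp background correction (offset 16), no filter, a filter on all 8 arrays, outlier spots kept, array weights, a robust prior with an intensity trend, a block for the slide row or for the replicate number, the mean over the probes of a gene and leaving out each array. The fits within each slide row, the term for sex by row and the count without Melk were added after the data were seen. No protein sequences were used here. Figures were drawn with matplotlib 3.10.9.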

Additional observations from a re-analysis of the deposited data

Results flagged for a closer look

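Among the 22 genes given in full, each sex was searched for a rat far from the other 3, which made 44 groups. In 1 group the gap to the nearest rat took up 0.869 of the whole range, which is above Dixon's limit for 4 values: the log2 signal of Aspm was -3.55 in female 4 and -3.77 to -3.74 in the other females. Chance flags about 1 in 20 such groups, or 2.2 of 44.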

How the results depend on the processing

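Melk, Tpx2 and Kif11 were called higher in males under all 19 alternatives over both rows of the slide. The number of members called higher in males was 4 in the reported fit, 6 with quantile normalization or the authors' log2 values, and 3 to 5 when 1 array was left out, and it was 1 within slide row 1 and 2 within row 2. The number with a 2-fold difference was 2, but 4 with quantile normalization and with the authors' log2 values, 1 with normexp, 1 within slide row 1, 1 without Melk, and 2 to 4 when 1 array was left out, with 4 without female 4 and 4 without male 1. The number called higher in females was 0, but 1 (Tyms) with normexp and 1 with an intensity trend and robust prior, and 0 without any 1 array. The median log2 fold-change of the members, 0.56, was 0.31 to 0.78 when 1 array was left out, 0.02 within slide row 1 and 0.98 within row 2. The other cell cycle genes called higher in males numbered 6, with 3 to 6 when 1 array was left out (3 without female 1 or female 2), 0 within row 1 and 1 within row 2. Those called higher in females numbered 2, with 2 to 3 when 1 array was left out and 0 within either row. Among the 22 genes given in full, signs turned within row 1 for Cks1b (-0.04), Ttk (-0.09), Pcna (0) and Cdkn1a (0.06). Within row 2 the sign turned for Mcm7 (0.05). Without male 3 it turned for Cdkn1a (0.02), which otherwise went down to -0.15 with 1 array left out. Signs of further members turned as well, among them Birc5 (-0.41) and Cenpf (-0.35) within row 1 and Mad2l1 (-0.04) within row 2. Of the 40 members, 36 were positive in the reported fit, 22 within row 1, 36 within row 2 and 34 without male 3. The cause of these changes was not tested, and the fits within a row held only 2 rats per sex.

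With the replicate number as a block, the calls over all probes fell from 795 to 453 higher in males and from 1094 to 577 higher in females, while Melk, Tpx2, Kif11 and Spc25 remained called. The other cell cycle genes called higher in males then numbered 3. The deviations of same-numbered rats had correlations of 0.125, 0.0427, -0.00794 and 0.117. The best-correlated male had the same number for females 1 and 4, but was male 4 for female 2 and male 1 for female 3. Whether the numbers pair the rats cannot be decided from these values.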
